A study of Mus musculus with 12 samples.

Results

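Thymus was set against lung on 6 of the 12 expression arrays of the series, the 3 labelled thymus and the 3 labelled lung, chosen by their tissue labels. In each tissue 1 array came from wild type (WT) mice, 1 from mice lacking p66Shc, an isoform of the adaptor protein Shc1 (p66-/-), and 1 from mice lacking the tumour suppressor p53 (p53-/-), and the plots name the knock-outs p66KO and p53KO. All mice were of strain Sv/129 and 2 months old, and each array held RNA pooled from 4 mice, whose sex was not given. Values are log2 signals, so that a difference of 1 is 2-fold, and each difference is thymus minus lung, fitted over the 3 genotypes with genotype as a block (n = 3 arrays per tissue). The spread behind each p therefore holds array noise together with any way in which the tissue difference varied with genotype. Whether the same mice gave both tissues was not stated in the sources used here.

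The thymus is the organ in which T cells are made. Immature thymocytes there assemble their antigen receptor genes with the RAG recombinase, divide, and are selected on a network of thymic epithelial cells, which attract progenitors through chemokines such as Ccl25 and present self peptides. The lung is built of alveolar type I and type II cells, airway club and ciliated cells, a dense capillary bed and an elastic matrix, and its resident immune cells include alveolar macrophages. In RNA from whole tissue, fewer cells of a type and less RNA per cell cannot be told apart.

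Some arrays carried transcripts of tissues other than their own. On the WT thymus array the 23 measured salivary gland genes averaged 13.08, against 5.88 and 5.92 on the p66-/- and p53-/- thymus arrays and 5.61 to 5.90 on the lung arrays. Mucl2, a salivary mucin-like gene, read 14.66, 4.63 and 4.17 in WT, p66-/- and p53-/- thymus, against 3.81, 3.74 and 3.83 in lung. On the WT lung array the 29 liver genes averaged 9.56, against 8.54 in p66-/- lung, 6.85 in p53-/- lung and 6.12 to 6.85 in thymus. Alb, which encodes albumin, read 7.83, 9.56 and 7.24 in thymus and 13.13, 12.30 and 8.79 in lung. Both sets were thus highest in the WT pair, so every list below is also given without that pair. Across probe sets the WT thymus array correlated with the p66-/- and p53-/- thymus arrays at r = 0.924 and 0.929, whereas these had r = 0.982 with each other; among lung arrays r was 0.964 to 0.989. Skeletal muscle genes averaged 8.95 in p53-/- thymus, against 6.79 and 6.57 in WT and p66-/- thymus and 7.44 to 8.42 in lung. Measures of RNA quality also moved with tissue. The 3′ minus 5′ signal of Gapdh was 0.35, 0.59 and 0.24 on the WT, p66-/- and p53-/- thymus arrays and 2.29, 1.32 and 0.66 on the lung arrays, with no overlap. The signal of 18S ribosomal RNA was 10.86, 5.97 and 10.30 in thymus and 5.52, 5.94 and 9.79 in lung, so that it was high on 2 thymus arrays and 1 lung array. The part of these transcripts and measures in the results was not tested.

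**Figure D1:**
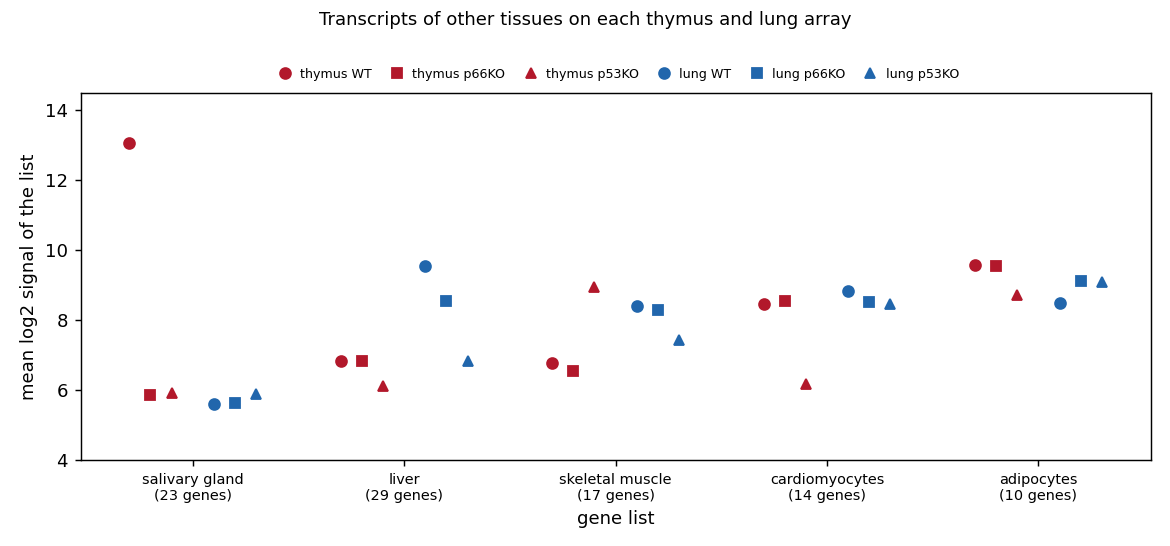
Mean log2 signal of 5 lists of genes of other tissues (x axis) on each of the 3 thymus arrays (red, left of each list) and 3 lung arrays (blue), with the genotype given by the symbol. The salivary list stands at 13.08 on the WT thymus array alone, and the liver list is highest on the WT lung array at 9.56.

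Of 18193 genes, 720 (3.96%) were higher and 1698 (9.33%) were lower in thymus than in lung at an adjusted p under 0.05 and a difference of 2-fold or more. Without the WT pair, 1552 (8.53%) were higher and 1943 (10.7%) lower, with 1 residual degree of freedom, and 703 and 1581 of these were also called over all 3 pairs. Without the p66-/- pair 477 were higher and 1305 lower, and without the p53-/- pair 324 and 1465. The 12 largest of the higher genes 2-fold or more apart in every pair were, in falling order, Rag1, Cd8b1, Ccr9, Cd3g, Trbv1, Satb1, Dntt, Prss16, Sh2d1a, Ccl25, Bcl11b and Thy1. The order depends on the floor of each probe set, since some of these genes read no higher in the other tissue than on heart and liver arrays. No detection calls were used here, and differences are therefore given without folds. All 12 higher genes are T lineage genes apart from Prss16 and Ccl25 of thymic epithelium. The 12 largest of the lower genes were Sftpa1, Cxcl15, Sftpc, Cldn18, Inmt, Akap5, Chil3, Tcf21, Selenbp1, Itga8, Mal2 and Tmem204. Among them are 2 surfactant proteins, the alveolar tight junction gene Cldn18, the lung chemokine Cxcl15, the macrophage lectin Chil3 and the mesenchymal genes Tcf21 and Itga8. Among called genes the largest difference was 7.09 upwards and -8.14 downwards. On the thymus arrays, 543 of the 720 higher genes (75.4%) stood above every heart and liver array, and 1074 of the 1698 lower genes (63.3%) did so on the lung arrays. Over all 18193 genes, 2031 did so on the thymus arrays and 2946 on the lung arrays. The called genes were chosen for being high in that same tissue, so these shares are not independent of the calls.

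Genes of receptor recombination and the pre-T cell receptor were mostly higher in thymus: 6 of 9 measured genes passed as higher and 0 as lower, with a median difference of 2.10 (0.09 over all genes). Rag1, the catalytic subunit of the recombinase, read 11.31, 12.59 and 13.13 in WT, p66-/- and p53-/- thymus, against 3.86, 7.22 and 4.67 in lung. The groups lay far apart, and the p66-/- lung array was the highest of the lung arrays. The difference was 7.09 ± 0.56 (SE, adjusted p = 0.000918). WT and p53-/- lung read no higher than the heart and liver arrays, at 4.03 to 5.10, so that the size is set in part by the floor of the probe set. Dntt, the polymerase that adds bases at receptor gene joints, read 10.90, 12.52 and 12.78 in thymus and 5.79, 7.63 and 6.74 in lung (difference 5.34 ± 0.27, adjusted p = 0.000328). Rag2, the partner of Rag1, read 9.05, 10.31 and 9.96 in thymus and 7.66, 7.69 and 7.69 in lung (2.10 ± 0.28, adjusted p = 0.0055), and its lung level lay within that of heart and liver, 7.58 to 8.29. Ptcra, the invariant chain of the pre-T cell receptor, was higher, at 8.56, 9.13 and 8.57 against 7.19, 7.37 and 7.62 in lung (1.36 ± 0.23, adjusted p = 0.0126). Hmgb2, a DNA bending protein, and the ligase Lig4 were higher by 3.42 and 2.95. The other members, the end joining genes Xrcc4, Prkdc and Nhej1, which most cells use, differed by 0.41, 0.28 and 0.07 and did not pass. Without the WT pair the list again had 6 higher and 0 lower, and its median was 2.45.

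The T cell receptor complex and its signalling chain had the highest share of calls among the thymocyte lists. Of 22 genes, 19 were higher in thymus and 0 lower, with a median of 3.43 (20 and 0, median 3.80, without the WT pair). Cd8b1, the beta chain of the CD8 coreceptor, read 11.32, 12.46 and 12.74 in thymus and 4.56, 6.93 and 5.46 in lung (6.53 ± 0.35, adjusted p = 0.000382), where WT and p53-/- lung did not exceed the 5.001 to 5.78 of heart and liver. Cd3g, a signalling chain of the receptor, read 10.44, 12.26 and 12.49 in thymus and 4.73, 6.58 and 6.12 in lung (5.91 ± 0.22, adjusted p = 0.000207). No thymus array approached a lung array for either gene. Cd3d, Cd247, Cd5 and Rasgrp1, a further pair of receptor chains, a coinhibitor and a Ras activator, were higher by 4.55, 4.54, 4.43 and 4.41. The CD4 coreceptor gene Cd4 was higher by 3.45, at 9.69, 11.44 and 11.15 against 6.96, 7.61 and 7.37. The members that did not pass were Vav1, Cd8a and Zap70, at 0.87, 0.56 and 0.01. For all 3 the probe set used, the brightest of the gene over the whole series, differed from the others: the other probe set of Vav1 differed by 2.49, the other 4 probe sets of Cd8a by 3.70 to 5.53 and the other 2 of Zap70 by 1.82 and 2.98.

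Transcription factors of the T lineage, listed with the receptor signalling protein Themis, divided. Of 22 measured, 10 were higher in thymus and 1 lower, with a median of 1.20 (14 and 1, median 1.81, without the WT pair). Satb1, a chromatin organiser, read 12.31, 13.22 and 13.61 in thymus and 6.54, 9.06 and 6.77 in lung (5.59 ± 0.49, adjusted p = 0.00125). Bcl11b, needed for T lineage commitment, was higher by 4.86 ± 0.42 (adjusted p = 0.00121), and Themis, Myb, Ikzf1 and Gata3 by 4.18, 3.95, 3.33 and 2.58. Hes1, a Notch target also used outside lymphocytes, was the lower gene, at 7.999, 7.39 and 7.62 in thymus and 9.18, 8.80 and 9.32 in lung (fell by 1.43 on the log2 scale, SE 0.20, adjusted p = 0.00677). The Notch receptor gene Notch3 and the inhibitor Id3 had differences of -1.52 and -1.02 and did not pass (adjusted p = 0.0565 and 0.186).

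Other genes of immature thymocytes numbered 18, of which 10 were higher and 1 lower, with a median of 1.15 (12 and 1, median 1.46, without the WT pair; 6 and 1 without the p66-/- and 7 and 1 without the p53-/- pair). Ccr9, the receptor for Ccl25, read 10.14, 11.60 and 12.16 in thymus and 4.47, 5.92 and 4.54 in lung (6.32 ± 0.42, adjusted p = 0.000585). Rhoh, Endou, Coro1a and Arpp21 were higher by 3.41, 3.28, 2.98 and 2.44. Kit, the stem cell factor receptor of the earliest progenitors and of mast cells, went the other way, at 5.48, 5.72 and 6.002 in thymus and 8.01, 8.33 and 8.30 in lung (fell by 2.48, SE 0.19, adjusted p = 0.00084). The other probe set of Kit differed by only -0.24. Outside the lists, the surface glycoprotein Thy1 was higher in thymus by 4.73 and the adaptor Sh2d1a by 5.10. Trbv1, a receptor beta segment measured by a probe set that may bind related segments, was higher by 5.90.

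Within lung, the p66-/- array had the highest mean of the recombination, receptor and B cell lists, but not the highest level of each member. Its mean over the recombination list was 7.23, against 6.602 in WT and 6.74 in p53-/- lung, and over the receptor list 7.17, against 6.34 and 6.82. Over the B and plasma cell list it was 7.22, against 6.51 and 6.74. Members that read highest on another lung array were Ptcra and Lig4, among others. In WT, p66-/- and p53-/- lung Ptcra read 7.19, 7.37 and 7.62, and Lig4 6.95, 6.59 and 5.54. Even with these lung levels, 20 of 22 receptor genes and 6 of 9 recombination genes had every thymus array above every lung array. Over all 18193 genes, 2782 did so.

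**Figure D2:**
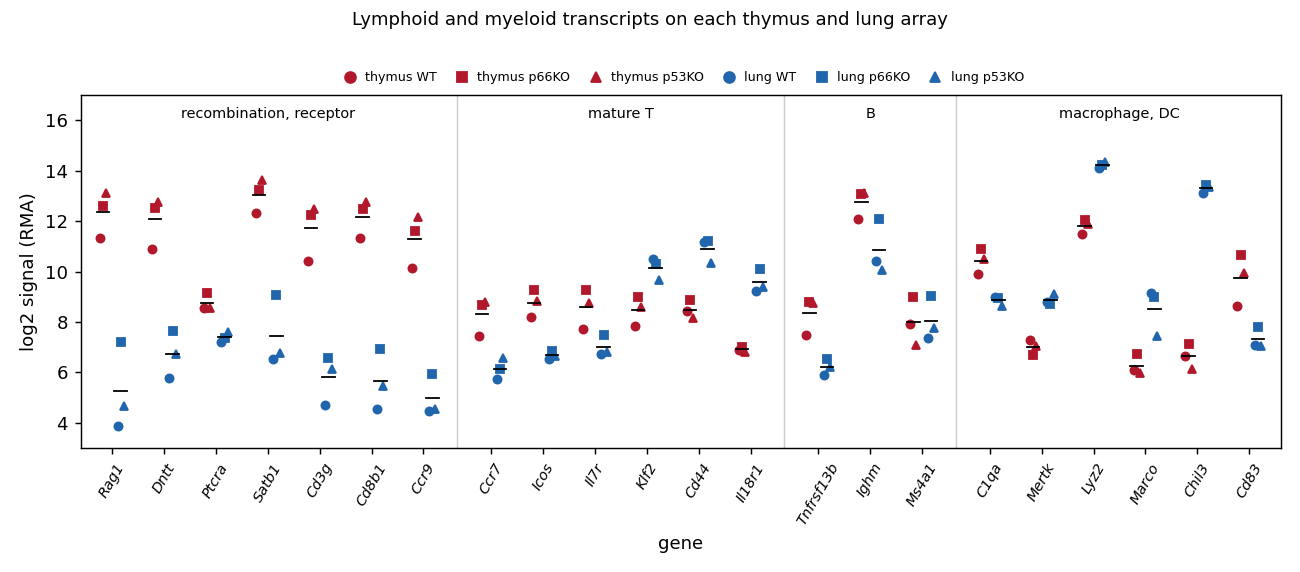
Log2 signal (y axis) of genes of the T lineage, B cells, macrophages and dendritic cells (DC) on the 3 thymus arrays (red, left) and 3 lung arrays (blue, right), with the genotype given by the symbol and the group mean by a black line. Rag1, Satb1, Cd3g, Cd8b1 and Ccr9 separate by more than any of the mature T cell genes, and Lyz2, Marco and Chil3 lie higher in lung.

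Mature and migrating T cell genes went both ways. Of 16 measured, 4 were higher and 4 lower in thymus, with a median of 0.71 (6 and 4, median 0.64, without the WT pair). Ccr7, the chemokine receptor that guides maturing thymocytes and naive T cells, read 7.45, 8.68 and 8.79 in thymus and 5.75, 6.15 and 6.57 in lung (2.15 ± 0.23, adjusted p = 0.00248). The costimulator Icos, the cytokine receptor Il7r and the integrin Itgae were higher by 2.08, 1.56 and 1.11. Il18r1, a cytokine receptor of effector cells, read 6.90, 7.03 and 6.82 in thymus and 9.24, 10.11 and 9.39 in lung (fell by 2.67, SE 0.22, adjusted p = 0.00104). Cd44, an adhesion receptor of memory T cells that stromal and myeloid cells also carry, was lower by 2.41 (SE 0.21, adjusted p = 0.00122). Klf2 and S1pr1, the factor and the receptor for exit from the thymus, were lower by 1.69 and 1.29. Both are also made by endothelial cells, whose markers were lower in thymus in 30 of 32 cases, and the part of these was not tested. Foxp3, the factor of regulatory T cells, read 4.57 to 4.68 on all 6 arrays and did not pass (0.01). These levels lie below the medians of the arrays, 6.23 to 6.37, so the floor of the probe set may hide a difference.

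Most cytotoxic and B cell genes did not pass, which was also true of 15775 of all 18193 genes. Over all genes, 720 were higher and 1698 lower. Of 19 genes of natural killer (NK) and cytotoxic cells, 3 were higher and 0 lower, with a median of 0.35 (3 and 0, median 0.13, without the WT pair; 2 and 0 without the p66-/- and 1 and 0 without the p53-/- pair). These were the chemokine Ccl5 (1.92), the protease Gzma (1.71) and the granule protein Nkg7 (1.15). Gzma read 8.14, 9.94 and 10.95 in thymus and 7.59, 8.14 and 8.18 in lung, and WT thymus overlapped with lung. Klrd1, an NK receptor subunit, read 6.66, 6.73 and 6.75 in thymus and 6.91, 6.81 and 6.78 in lung, and Gzmb differed by -0.08. The NK and cytotoxic list averaged 6.01 to 6.65 on the thymus and lung arrays, near the 5.87 to 6.21 of heart and liver. Of 25 B and plasma cell genes, 3 were higher and 1 lower, with a median of 0.24 (4 and 1, median 0.18, without the WT pair; 3 and 0 without the p66-/- and 1 and 0 without the p53-/- pair). The higher ones were the receptor Tnfrsf13b (2.14 ± 0.25, adjusted p = 0.0032), Ighm, the heavy chain of IgM (1.89), and Spib, a factor also present in plasmacytoid dendritic cells (1.16). Ighm read 12.09, 13.06 and 13.10 in thymus and 10.42, 12.10 and 10.05 in lung, so that WT thymus and p66-/- lung overlapped. Ms4a1, the B cell antigen CD20, read 7.91, 9.01 and 7.07 in thymus and 7.35, 9.01 and 7.77 in lung, with no separation. Prdm1, a factor of plasma cells and of other lineages, was the lower gene (fell by 1.24, SE 0.28, adjusted p = 0.0359).

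Calls among genes of antigen presenting cells other than macrophages were all upwards in thymus. Of 13 dendritic cell genes, 4 were higher and 0 lower, with a median of 0.43 (4 and 0, median 0.52, without the WT pair; 2 and 0 without the p66-/- and 3 and 0 without the p53-/- pair). Cd83, a maturation antigen that thymic epithelium also carries, read 8.63, 10.65 and 9.95 in thymus and 7.10, 7.78 and 7.04 in lung (2.44 ± 0.32, adjusted p = 0.00535). The endocytic receptor Ly75, also found on thymic epithelium, was higher by 2.39, the chemokine Ccl22 by 1.54 and the factor Irf8 by 1.15. The other 9 dendritic cell genes did not pass, and 2 of the 13 differed below 0, against 7270 of all 18193 genes. These 2 were Zbtb46 at -0.16, with its other probe sets at -1.86 to 0.02, and Cd209a at -0.05. Among 8 genes of MHC class II presentation, H2-Oa, a chain that restrains peptide loading, was higher (1.55 ± 0.33, adjusted p = 0.0282) and 0 were lower, with a median of 0.54 (1 and 0, median 0.72, without the WT pair). With either knock-out pair left out, 0 of the 8 passed. The class II chains themselves were strong in both tissues. Cd74, the invariant chain, read 11.81, 13.13 and 13.10 in thymus and 12.82, 12.71 and 12.72 in lung, and H2-Ab1 averaged 12.09 in thymus and 11.53 in lung (0.56 ± 0.23, adjusted p = 0.182).

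Macrophage genes were called in both directions. Of 26 measured, 2 were higher and 9 lower in thymus, with a median of -0.61 (3 and 9, median -0.84, without the WT pair; 1 and 6 without the p66-/- and 1 and 8 without the p53-/- pair). Chil3, a lectin of alveolar macrophages, read 6.66, 7.11 and 6.15 in thymus and 13.10, 13.44 and 13.35 in lung, far apart (-6.65 ± 0.24, adjusted p = 0.000204). The lysozyme Lyz2, which alveolar type II cells make too, read 11.47, 12.02 and 11.88 in thymus and 14.09, 14.22 and 14.36 in lung (-2.43 ± 0.19, adjusted p = 0.000946). The scavenger receptor Marco, the second lysozyme Lyz1, the engulfment receptor Mertk and the mannose receptor Mrc1 were lower in thymus by 2.26, 2.18, 1.88 and 1.71. Other probe sets differed by -0.36 for Marco and by -2.85 to -0.69 for Lyz1. The Lyz1 probe set used is of the _x_at kind, whose probes can match more than 1 transcript. The complement genes C1qc and C1qa were the higher ones. C1qa read 9.89, 10.87 and 10.50 in thymus and 9.005, 8.96 and 8.65 in lung (1.55 ± 0.26, adjusted p = 0.0136), and C1qb differed by 1.37 without passing (adjusted p = 0.069).

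Calls among granulocyte genes went both ways. Over all 18193 genes, 720 were higher and 1698 lower. Of 21 neutrophil and monocyte genes, 2 were higher and 2 lower, with a median of -0.08 (4 and 2, median 0.004, without the WT pair; 0 and 1 with either knock-out pair left out). The granule proteins Ngp and Camp were higher in thymus by 1.40 and 1.13, and both calls were lost with either knock-out pair left out. Fpr2, a formyl peptide receptor, read 6.19, 5.90 and 6.09 in thymus and 8.70, 8.53 and 8.55 in lung (fell by 2.53, SE 0.18, adjusted p = 0.000736). Lcn2, a granule protein that epithelia also secrete, was lower by 1.76, at 10.06, 6.71 and 7.31 in thymus and 10.50, 9.40 and 9.45 in lung. S100a8, an abundant neutrophil protein, read 9.92, 10.32 and 9.98 in thymus and 10.51, 8.91 and 8.24 in lung, and its difference was called only without the WT pair (1.58, against 0.86 over all pairs). Of 9 mast cell and basophil genes, 0 were higher and 2 lower, namely Gata2, which endothelial cells express too (2.57 lower), and Hdc, which makes histamine (1.14 lower). The same 0 and 2 were counted without the WT pair, with a median of -0.005, and 0 and 1 without the p66-/- pair. The other 7 members, among them the mast cell proteases and chains of the IgE receptor, lay between -0.19 for Fcer1a and 0.35 for Cpa3 and did not pass.

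**Figure D3:**
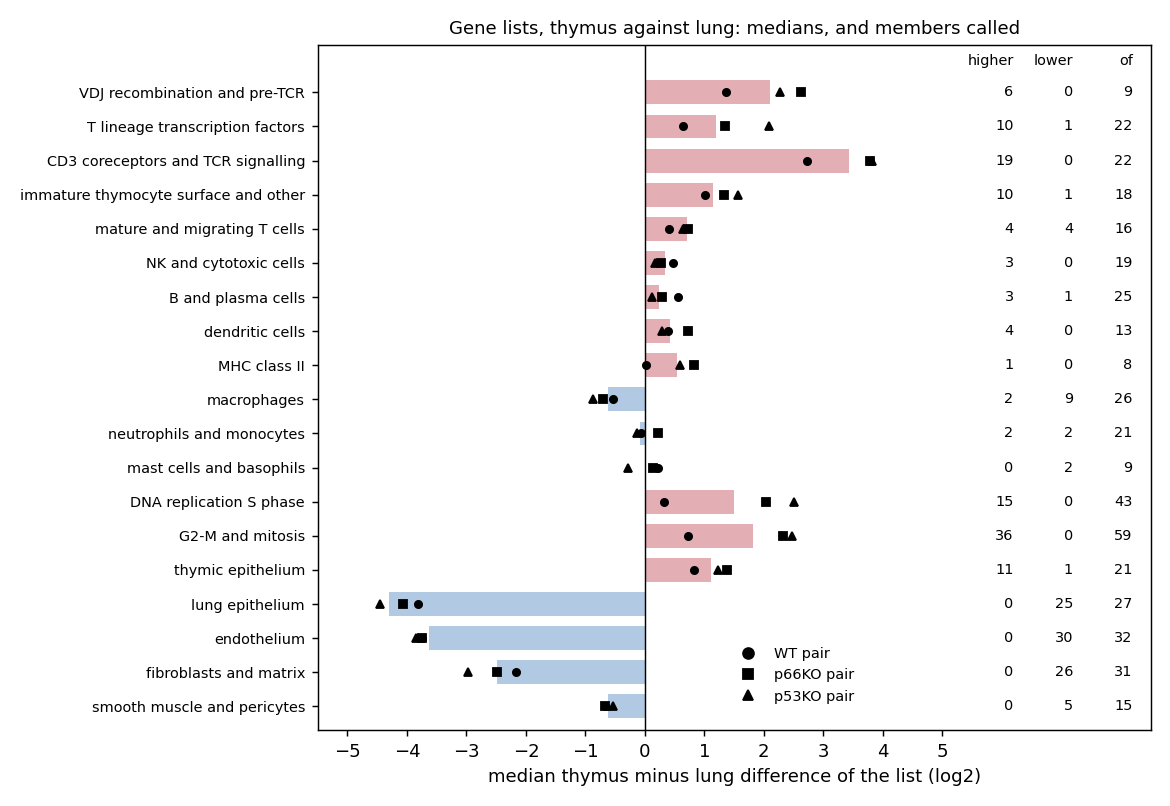
Median thymus minus lung difference of 19 gene lists (bars, log2 on the x axis; red above 0, blue below), with the medians of the WT, p66KO and p53KO pairs as symbols and the numbers of members higher and lower in thymus, of those measured, at the right. The receptor list has the highest median at 3.43, and lung epithelium and endothelium the lowest, at -4.29 and -3.64.

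Genes of the cell cycle were higher in thymus, by different amounts in the 3 pairs. Of 43 genes of DNA replication (S phase), 15 were higher and 0 lower, with a median of 1.503; without the WT pair 34 were higher and the median was 2.32, and without the p53-/- pair 2 were higher. Of 59 genes of G2 and mitosis, 36 were higher and 0 lower, with a median of 1.82; without the WT pair 48 were higher and the median was 2.43, and without the p53-/- pair 16 were higher. The replication list had medians of 0.32, 2.03 and 2.4995 in the WT, p66-/- and p53-/- pairs, and the G2-M list 0.72, 2.33 and 2.47. The WT pair thus stood below both knock-out pairs. The array with the salivary transcripts is in that pair, and genotype and that content cannot be told apart here.

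Rrm2, a subunit of ribonucleotide reductase, read 8.72, 11.50 and 11.95 in WT, p66-/- and p53-/- thymus and 7.12, 7.43 and 5.95 in lung (3.89 ± 0.76, adjusted p = 0.022). Cdca7, Pclaf and Uhrf1, which act at replicating chromatin, were higher by 3.65, 3.51 and 3.39, and the helicase subunit Mcm6 by 2.86. Mcm5, another subunit of that helicase, read 7.90, 11.33 and 11.34 in thymus and 8.14, 7.97 and 6.61 in lung and did not pass (2.61 ± 0.88, adjusted p = 0.111). On the WT thymus array it lay below WT and p66-/- lung. All 43 replication genes had a difference above 0, against 10923 of all 18193 genes. For 18 of the 43 the tissues overlapped, against 12310 of all 18193.

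Birc5, an inhibitor of apoptosis that serves in chromosome segregation, was the largest of the mitotic list, at 7.51, 10.76 and 10.87 in thymus and 5.49, 5.70 and 5.41 in lung (4.18 ± 0.66, adjusted p = 0.0103). Mki67, the proliferation antigen Ki-67, read 8.62, 11.88 and 12.26 in thymus and 7.43, 7.92 and 6.89 in lung (3.503 ± 0.74, adjusted p = 0.0279). Top2a, the topoisomerase that untangles chromosomes, was higher by 3.60 and the ubiquitin conjugase Ube2c by 3.46. In all 3 thymus arrays these genes exceeded every lung array, and the knock-out arrays exceeded the WT one. Other probe sets of Top2a differed by 0.16 to 1.39. Over the whole mitotic list the mean level was 7.19, 8.93 and 9.05 in thymus and 6.48, 6.64 and 6.55 in lung, against 6.24 to 6.57 on the heart and liver arrays. The spindle gene Tpx2 had the only difference below 0 (-0.06). Its probe set was the brightest of 4, and the others differed by -0.03, 1.49 and 1.76.

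**Figure D4:**
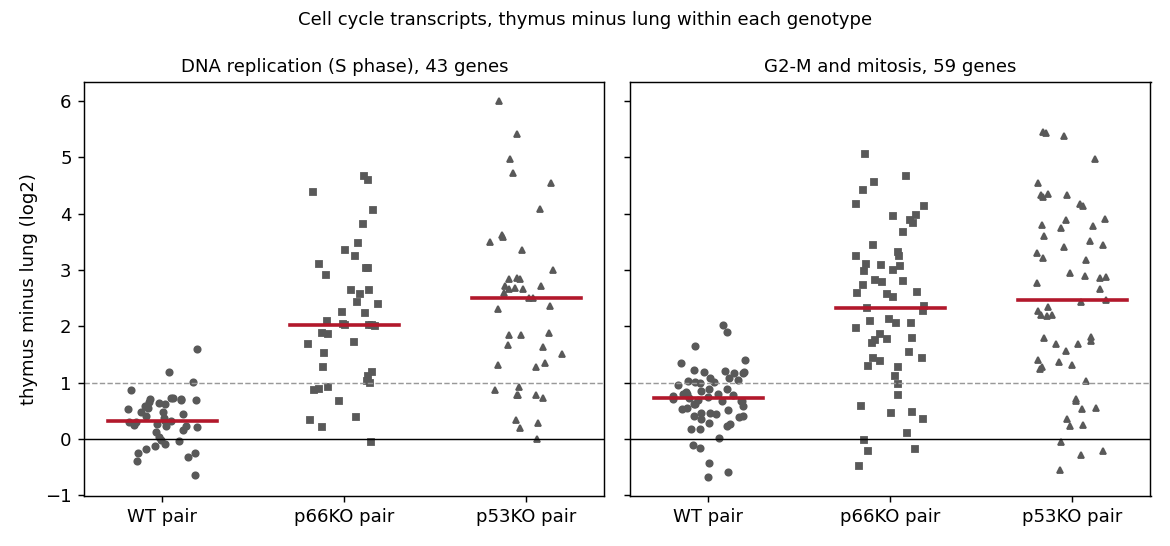
Thymus minus lung difference (log2, y axis) of each S phase gene (left) and each G2-M gene (right) within the WT, p66KO and p53KO pairs, with the median as a red line and 2-fold as a dashed line. The medians are 0.32, 2.03 and 2.4995 for S phase and 0.72, 2.33 and 2.47 for G2-M.

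Many mitotic genes share a promoter design in which CCAAT boxes, bound by the factor NF-Y, sit upstream of a cell cycle homology region (CHR), read by the DREAM and MuvB complexes. Promoters of 300 bases, from 250 before to 50 after the start, were taken from RefSeq (GRCm38.p6) and searched on both strands for CCAAT and for the CHR core TTTGAA, which can overlap by 1 letter at most. A promoter was found for 49 of the 59 mitotic genes. CCAAT was present in 71.4% of them, TTTGAA in 63.3% and both in 55.1%, against 37.9%, 18.1% and 7.1% of all 27025 promoters. For the 14452 promoters of genes on the array the shares were 38.2%, 13.3% and 5.4%. Among 35 promoters of replication genes the shares were 54.3%, 11.4% and 8.6%. A match is a description of the letters and not a bound site. The promoters below belong to the 3 mitotic genes of largest difference that hold both motifs, Top2a (chr11:99024140-99024439, minus strand), Mki67 (chr7:135716330-135716629, minus strand) and Ube2c (chr2:164769679-164769978, plus strand). They are printed 5′ to 3′ with every match to either motif, on either strand, in capitals.
Top2a: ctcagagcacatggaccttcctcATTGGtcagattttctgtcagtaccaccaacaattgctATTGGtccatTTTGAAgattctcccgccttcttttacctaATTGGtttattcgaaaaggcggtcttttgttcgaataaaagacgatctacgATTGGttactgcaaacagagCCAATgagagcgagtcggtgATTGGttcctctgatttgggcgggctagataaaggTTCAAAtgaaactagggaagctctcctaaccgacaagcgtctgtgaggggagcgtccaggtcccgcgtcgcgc
Mki67: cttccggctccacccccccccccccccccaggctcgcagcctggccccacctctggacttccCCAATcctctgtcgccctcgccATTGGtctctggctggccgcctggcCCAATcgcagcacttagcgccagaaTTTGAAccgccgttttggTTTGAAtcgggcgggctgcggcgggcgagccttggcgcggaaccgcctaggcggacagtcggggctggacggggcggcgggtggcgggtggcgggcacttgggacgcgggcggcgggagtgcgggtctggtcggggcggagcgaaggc
Ube2c: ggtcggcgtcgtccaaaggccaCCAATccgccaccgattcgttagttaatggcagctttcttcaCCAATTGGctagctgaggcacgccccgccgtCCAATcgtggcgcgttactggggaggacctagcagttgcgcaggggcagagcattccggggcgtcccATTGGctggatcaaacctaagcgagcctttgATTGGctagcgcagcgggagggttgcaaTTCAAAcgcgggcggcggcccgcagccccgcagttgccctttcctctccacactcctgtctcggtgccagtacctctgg
Top2a holds 6 CCAAT and 2 TTTGAA matches, Mki67 3 and 2, and Ube2c 6 and 1.

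Calls among genes of thymic epithelium were mostly upwards in thymus. Of 21 genes, 11 were higher and 1 lower, with a median of 1.12 (12 and 2, median 1.20, without the WT pair). Prss16, a serine protease of cortical epithelium, read 10.38, 11.86 and 11.63 in thymus and 5.59, 6.65 and 6.32 in lung (5.11 ± 0.20, adjusted p = 0.000209). Ccl25, the ligand of Ccr9, read 9.64, 12.28 and 11.24 in thymus and 5.69, 6.41 and 5.96 in lung (5.03 ± 0.38, adjusted p = 0.000797), so that ligand and receptor were both higher in thymus. The other probe set of Ccl25 differed by 0.55. Tbata, Krt14 and Krt5 were higher by 4.69, 2.78 and 2.50. Krt5, a keratin that airway basal cells also make, read 8.06 to 8.28 in lung. Foxn1, the master factor of thymic epithelium, differed by 0.34 on the probe set used and by 1.77 on its other one. Cxcl12, a stromal chemokine, was called higher at 1.96, but another of its probe sets differed by -1.75. Kitl, the ligand of Kit, was the lower gene, at 7.86, 7.66 and 6.75 in thymus and 11.78, 11.99 and 11.25 in lung (-4.25 ± 0.21, adjusted p = 0.000291). Its direction was that of its receptor on the probe sets used. The other probe sets of Kitl differed by -2.83 to -0.605, and that of Kit by -0.24. In all, 5 of the 21 genes differed below 0, against 7270 of all 18193. Cldn3 stood at -1.58 without passing (adjusted p = 0.0736), and was called lower without the WT pair (-2.29). Dll4 differed by -0.90, with every thymus array below every lung array, and did not reach 2-fold.

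Lung epithelium gave the largest differences. Of 27 genes, 25 were lower in thymus and 0 higher, with a median of -4.29 (26 and 0, median -4.46, without the WT pair). The surfactant protein Sftpa1 of type II cells read 5.52, 6.76 and 5.68 in thymus and 14.25, 14.19 and 13.94 in lung, with WT and p53-/- thymus at the 5.32 to 5.95 of heart and liver (-8.14 ± 0.29, adjusted p = 0.000204). Ager, a receptor abundant on type I cells, read 7.63, 7.91 and 7.81 in thymus and 13.45, 13.47 and 13.75 in lung (-5.77 ± 0.19, adjusted p = 0.000204). Sftpc, a surfactant protein found in type II cells, was lower by 7.55 ± 0.62 (adjusted p = 0.00102), although it reached 9.36 in p66-/- thymus, against 6.34 and 6.08 in WT and p53-/- thymus.

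Club cell genes were less even among the thymus arrays. Scgb1a1, the main secretoglobin of club cells, read 11.87, 13.22 and 7.13 in WT, p66-/- and p53-/- thymus and 14.94, 15.27 and 15.41 in lung. It did not pass over all pairs (-4.47 ± 1.14, adjusted p = 0.0507) and did without the WT pair (-5.16, adjusted p = 0.00322). Scgb3a2, a second secretoglobin, and Cyp2f2, a club cell cytochrome, read 10.36, 11.16 and 6.70 and 11.32, 10.69 and 6.53 in WT, p66-/- and p53-/- thymus, so that p53-/- thymus was the lowest for all 3 genes. In lung they read 14.17 to 14.35 and 14.17 to 14.25. On heart and liver arrays Scgb1a1 reached 9.45.

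Endothelial genes were lower in thymus in 30 of 32 cases and higher in 0, with a median of -3.64 (30 and 0, median -3.88, without the WT pair). Tek, the angiopoietin receptor, read 5.60, 5.81 and 5.35 in thymus and 11.46, 11.56 and 10.77 in lung (-5.68 ± 0.20, adjusted p = 0.000204). Ptprb, Tmem100, Ramp2, Lyve1 and the junction protein Cldn5 were lower by 5.48, 5.46, 5.27, 5.22 and 5.09. Another probe set of Tmem100 differed by -1.40. Prox1, a factor of lymphatic vessels, read 6.13, 5.61 and 5.34 in thymus and 5.67, 5.17 and 5.73 in lung and did not pass. These levels lay below the 6.28 to 7.13 of heart and liver, so the floor of the probe set may hide a difference. The mean of the list was 6.78 to 7.12 in thymus and 10.39 to 10.53 in lung, with 7.39 to 8.81 on heart and liver arrays.

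Mesenchymal genes followed. Of 31 fibroblast and matrix genes, 26 were lower in thymus and 0 higher, with a median of -2.49 (27 and 0, median -2.65, without the WT pair). Tcf21, a factor of lung mesenchyme, read 4.72, 4.92 and 4.91 in thymus and 11.40, 11.80 and 11.04 in lung (-6.57 ± 0.22, adjusted p = 0.000204). Another probe set of Tcf21 differed by only -0.30. The methyltransferase Inmt was lower by 6.82, the integrin Itga8 by 6.19 and the growth factor receptors Pdgfra and Pdgfrb by 4.55 and 4.42. Another probe set of Pdgfrb differed by -1.18. Fibrillar collagens differed less: Col1a1, Col1a2 and Col3a1 were lower by 1.55, 1.65 and 1.92. Lum, a matrix proteoglycan, read 9.21, 7.99 and 7.45 in thymus and 7.97, 8.36 and 8.05 in lung, with the WT thymus array highest, and did not pass.

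Smooth muscle was the stromal list with the fewest calls, 5 lower and 0 higher of 15, with a median of -0.62 (5 and 0, median -0.59, without the WT pair). Mylk, the myosin light chain kinase, read 9.01, 6.99 and 6.47 in thymus and 11.41, 11.70 and 11.19 in lung (-3.94 ± 0.48, adjusted p = 0.00407), again with WT thymus the highest of its tissue. Tagln, Actg2, Cnn1 and Des, contractile and cytoskeletal genes, were lower by 1.88, 1.77, 1.73 and 1.48. Acta2, smooth muscle actin, averaged 11.01 in thymus and 11.70 in lung and did not pass (-0.69 ± 0.24, adjusted p = 0.115).

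**Figure D5:**
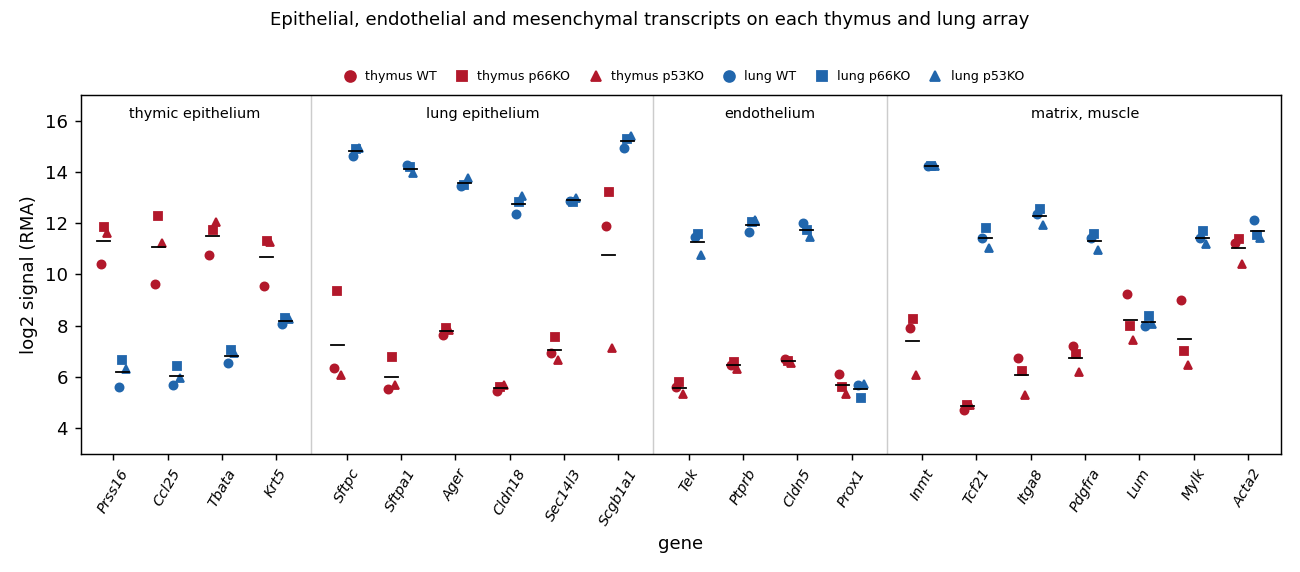
Log2 signal (y axis) of epithelial, endothelial and mesenchymal genes on the 3 thymus arrays (red, left) and 3 lung arrays (blue, right), with the genotype given by the symbol and the group mean by a black line. Prss16, Ccl25, Tbata and Krt5 lie higher in thymus, and Scgb1a1 ranges between 7.13 and 13.22 among the thymus arrays.

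Lists of other tissues varied in their calls with the pairs used. None of the 23 salivary genes passed, although their median difference was 2.85, since the WT pair stood at 8.64 and the p66-/- and p53-/- pairs at 0.16 and 0.05. With the p66-/- pair left out, 20 of them were called higher, and with the WT pair left out 1 was (median 0.13). Of 29 liver genes, 13 were lower in thymus and 0 higher, with pair medians of -3.13, -1.86 and -0.56 (0 higher and 15 lower, median -1.12, without the WT pair). Hp, the haptoglobin gene, which lung also makes, differed most (-4.31 ± 0.35, adjusted p = 0.00102), at 9.20, 9.60 and 7.79 in thymus and 13.63, 12.94 and 12.93 in lung. Of 14 cardiomyocyte genes, 2 were lower and 0 higher, and their mean was 8.46, 8.54 and 6.18 in thymus and 8.84, 8.52 and 8.48 in lung, with p53-/- thymus apart; without the WT pair 8 were lower and the median was -1.57, against -1.38 over all pairs. Of 17 skeletal muscle genes 0 passed, with a median of -0.65 (1 higher and 0 lower, median -0.10, without the WT pair), and without the p53-/- pair 9 were lower. Of 10 adipocyte genes 0 passed with or without the WT pair (medians 0.26 and -0.10), and Ucp1, the brown fat uncoupling protein, read 12.21, 11.70 and 10.86 in thymus and 9.88, 11.08 and 10.62 in lung. Of 7 erythroid genes Alas2, for haem synthesis, was lower in thymus (fell by 2.11, SE 0.26, adjusted p = 0.00401), also the count without the WT pair, and the list median was -0.19 over all pairs and -0.06 without it.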

How the data were processed

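The authors hybridised biotinylated cRNA of each pool to Affymetrix mouse expression arrays and, per the submitters' processing notes, used RMA in Partek 6.5, which subtracts background, equalises the distributions of the arrays and combines the probes of a set. What they deposited is a log2 value for each probe set and array, and it was not normalized again. Of 45101 probe sets, 64 were controls; of the rest, 34945 carried 1 gene symbol, 932 several and 9160 none in the table used here. Each of 18193 genes was represented by its brightest probe set over the 12 arrays. Of 535 listed genes measured, 273 had more than 1 probe set, and for 131 of these another probe set differed by 1 or more on the log2 scale. For 1523 genes that probe set carries the suffix _x_at or _s_at, given where probes match more than 1 transcript.

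Thymus minus lung was fitted with limma 3.58.1 (R 4.3.3) over 6 arrays with genotype as a block, leaving 2 residual degrees of freedom, and p-values were adjusted over all genes by the Benjamini-Hochberg method. Without the WT pair 1 remained, so that these p-values lean on the spread pooled over all genes. The block follows the genotype labels. Deviations from the tissue means correlated at -0.06, 0.46 and 0.07 within the WT, p66-/- and p53-/- pairs. Between unlike genotypes they correlated at -0.43 to 0.25, a range that holds the WT and p53-/- values. The fit was tested on simulated data. Python 3.11.15, numpy 2.4.6, pandas 2.3.3 and matplotlib 3.10.9 were used. Replicates are pools, and p-values measure only the spread between these arrays, whose number limits the precision.

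The 25 lists were chosen with earlier results of these data known. Named genes were the 12 largest called per direction that were 2-fold or more in each pair, up to 6 members per list with the largest difference and up to 3 of opposite sign, and 6 tissue markers. Genes named beyond this rule were chosen after their values were seen. Alternatives were no block, all 12 arrays, an intensity trend, repeated quantile normalization, median centring, cyclic loess, brighter genes, the mean of all probe sets, no _x_at or _s_at probe sets, a 4-fold threshold or none, list means, and each pair left out.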

Additional observations from a re-analysis of the deposited data

Results flagged for a closer look

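In the skeletal muscle list and 5 named muscle genes the p53-/- pair went against the other pairs; none of these differences between pairs was tested, since each pair holds 1 array per tissue. The median thymus minus lung difference of the 17 skeletal muscle genes was 1.624 in the p53-/- pair, against -1.05 in the WT and -1.17 in the p66-/- pair. Acta1, skeletal actin, differed by 2.289 in the p53-/- pair and by -3.64 and -3.78 in the WT and p66-/- pairs. The troponin genes Tnnc2 and Tnnt3 differed by 2.528 and 2.443 in the p53-/- pair, against -4.22 and -4.97 for Tnnc2 and -2.72 and -2.52 for Tnnt3 in the WT and p66-/- pairs. Neb, the nebulin gene, differed by 1.107 in the p53-/- pair and by -2.25 and -2.96 in the others. Nppa, the atrial natriuretic peptide gene, ran the other way, at -1.857 in the p53-/- pair and 2.19 and 5.35 in the WT and p66-/- pairs, while the cardiomyocyte list had medians of -2.64 in the p53-/- pair and -1.01 and -0.32 in the WT and p66-/- pairs, all of 1 sign. Levels moved in both tissues: Tnnc2 read 6.51, 5.97 and 11.14 in WT, p66-/- and p53-/- thymus and 10.73, 10.94 and 8.61 in lung.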

How the results depend on the processing

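List medians near 0 changed sign under some alternatives, namely those of mast cells (0.01 as reported), neutrophils and monocytes (-0.08) and adipocytes (0.26, and -0.0993 without the WT pair); the other list medians kept their sign in all alternatives run. Higher genes numbered 720 and ranged from 324 to 1552 with 1 genotype pair left out; they numbered 237 at 4-fold, 1504 with no block and no WT thymus array, and 247 with no block and no WT lung array (the last 2 chosen after seeing the data). Lower genes numbered 1698, and 737 at 4-fold. Without the genotype block 610 were higher and 1600 lower. With repeated quantile normalization 758 and 1455 were called, and the median of all genes moved to 0.117, against 0.09 as reported; with median centring it moved to 0.184 (761 and 1535 called).

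The spread of a list is taken here as the standard deviation of its 3 pair medians. Lists whose pairs differed widely could thus move far and not be named below. With 1 pair left out, the salivary median ranged from 0.1259 to 4.401 (2.85 as reported). The S phase median ranged from 1.101 to 2.315 (1.503 as reported), and neither is named below. List medians that moved by more than the spread were as follows. With means in place of medians, immature thymocyte genes stood at 1.486, mature T cells at 0.2394, macrophages at -0.8194, mast cells at -0.3414, dendritic cells at 0.7741, smooth muscle at -0.9069 and endothelium at -3.453. Among brighter genes alone, mature T cells stood at 0.8946, NK cells at 1.149, neutrophils at 0.1903, mast cells at -1.14, dendritic cells at 0.7285, endothelium at -3.83, thymic epithelium at 1.963 and erythroid cells at -1.183. Repeated quantile normalization gave -0.4288 for macrophages, -0.4983 for smooth muscle and -3.5 for endothelium; median centring gave -0.5266 for smooth muscle and -3.546 for endothelium; the mean of all probe sets gave -0.4549 and -2.94. With 1 genotype pair left out, medians ranged from 1.105 to 1.463 for immature thymocyte genes, 0.1319 to 0.4314 for NK cells, -0.8389 to -0.3623 for macrophages and -3.88 to -3.663 for endothelium. The causes were not tested.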
